A study of Mus musculus with 17 samples.

Results

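The genes described here encode the NF-κB transcription factor subunits and the IκB proteins that hold them in check or modify them in the nucleus. They were taken by symbol, from a list drawn up with earlier results of these data known, as the 5 subunit genes Rel, Rela, Relb, Nfkb1 and Nfkb2, the 3 classical inhibitor genes Nfkbia, Nfkbib and Nfkbie, and the 2 atypical, nuclear family members Nfkbiz and Bcl3. These are 10 of the 24453 gene models of the table, and each was found once. Values are RPKM, read counts scaled to exon length and to library depth, so levels of different genes can be compared per length.

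PolyA RNA-seq values were available for 13 mouse macrophage libraries of a study of the AP-1 factors ATF3, Jun and JunD (4 further GRO-seq samples are not analysed here). Immortalised bone marrow-derived macrophages (iBMDMs) of C57Bl/6EiJ background, which all carry Myc and mutant BRAF from a retrovirus and express Cas9, were given lentiviral guides against Atf3 (Atf3KO), Jun (JunKO) or Jund (JunDKO), or were the scramble control (Scramble, zsGreen in the titles), and all were vehicle treated. The knockout cells were sorted for a fluorescent marker of the virus, whether they were single clones is not given in the sources used here, and each of the 4 groups held 2 libraries. Thioglycollate-elicited macrophages (TGEMs), primary peritoneal cells from male mice aged 8 weeks, were treated with vehicle (PBS) or with the TLR4 agonist Kdo2 lipid A (KLA) for 1 h. There was 1 vehicle and 1 KLA library from C57Bl/6EiJ mice, and there were 1 vehicle and 2 KLA libraries from Balb/cJ mice. Whether libraries of a group came from separate cultures or animals is not given per sample, so p-values measure only the spread between these libraries.

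NF-κB acts as dimers of subunits that share a Rel homology domain. In resting cells classical IκB proteins keep most dimers in the cytoplasm, and signals from receptors such as TLR4 lead to phosphorylation and degradation of the inhibitor, which frees the dimer to enter the nucleus. Several inhibitor and subunit genes are themselves NF-κB targets, and in macrophages they are among the classic early response genes to bacterial lipid.

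The libraries were 1553296 to 18444552 reads deep, as the smallest steps of their RPKM values show, and 74.1% to 86.4% of reads were exonic. In the Atf3KO libraries 10425 and 10631 gene models had reads, against 11884 to 12533 in the other 6 iBMDM libraries. In the libraries labelled Atf3KO, Atf3 itself was at 154 and 169 RPKM against 80.7 and 77.4 in Scramble (log2 difference 1.02 ± 0.16, SE, limma-trend adjusted p = 0.00237). Jun in JunKO (0.34 ± 0.38) and Jund in JunDKO (-0.38 ± 0.49) did not pass. Exonic RNA does not check an edit, so groups are called by their labels. The paper reports that knockout efficiency was checked at the protein level, by western blot. Of 8 macrophage markers all were detected in both kinds of cell, with summed levels of 16835 to 33035 RPKM in iBMDMs and 8015 to 11011 in TGEMs. Lyz2 alone made up 14815 to 30398 and 5321 to 7145 RPKM of these sums. Of the others, Adgre1 (31.1 to 72.3 in TGEMs against 424 to 744), Csf1r (58.6 to 183 against 328 to 703), Itgam (36.1 to 94.1 against 213 to 529) and Fcgr1 (2.18 to 14.5 against 53.2 to 93.4) were lower in TGEMs. Only Cd68 was higher there (1404 to 4050 against 353 to 705), and the ranges of Spi1 and Mertk overlapped. Markers of B cells summed to 36.1 to 53.9 RPKM in TGEMs and to at most 0.943 in iBMDMs, and those of mesothelium and fibroblasts to 16.3 to 33.9 and at most 0.106. Markers of neutrophils and other granulocytes summed to between 0 and 41.1 RPKM in iBMDMs and to 1.95 to 14.2 in TGEMs, of which S100a8 made up as much as 41.1 and 13.2 RPKM, while Ly6g and S100a9 were at 0 in every library. Markers of T and NK cells summed to at most 1.42 RPKM in iBMDMs and 3.39 in TGEMs, with Cd3d, Cd8a and Ncr1 at 0, and those of dendritic cells to at most 0.582 and 3.39.

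The promoters of 4 members are shown because they held a κB decamer, the general NF-κB recognition sequence, within the 250 bases before the RefSeq start (build GRCm38.p6). Windows were given for 7 of the 10 members, namely Rel, Rela, Nfkb2, Nfkbia, Nfkbib, Nfkbie and Bcl3. Both strands were searched for the κB decamer and for the AP-1 sequence TGANTCA. Capitals mark a match to either, and each window runs 5′ to 3′ in the direction of the gene up to the base before its start.
Nfkbia (chr12:55492648-55492897, minus strand): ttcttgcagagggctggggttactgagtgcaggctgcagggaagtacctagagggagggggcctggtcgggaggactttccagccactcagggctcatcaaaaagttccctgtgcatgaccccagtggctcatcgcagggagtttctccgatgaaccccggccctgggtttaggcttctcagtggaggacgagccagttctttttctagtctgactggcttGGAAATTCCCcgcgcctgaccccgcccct
Rel (chr11:23770970-23771219, minus strand): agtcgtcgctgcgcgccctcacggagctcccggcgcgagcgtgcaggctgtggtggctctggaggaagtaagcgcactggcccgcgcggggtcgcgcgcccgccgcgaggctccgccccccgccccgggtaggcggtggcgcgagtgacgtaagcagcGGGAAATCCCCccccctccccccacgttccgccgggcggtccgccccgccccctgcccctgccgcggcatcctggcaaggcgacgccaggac
Nfkbie (chr17:45555450-45555699, plus strand): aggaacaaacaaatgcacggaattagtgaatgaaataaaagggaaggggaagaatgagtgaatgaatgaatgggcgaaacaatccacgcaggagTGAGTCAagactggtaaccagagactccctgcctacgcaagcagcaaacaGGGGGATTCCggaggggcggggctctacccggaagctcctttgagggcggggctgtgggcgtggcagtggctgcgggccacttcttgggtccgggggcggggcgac
Nfkb2 (chr19:46305680-46305929, plus strand): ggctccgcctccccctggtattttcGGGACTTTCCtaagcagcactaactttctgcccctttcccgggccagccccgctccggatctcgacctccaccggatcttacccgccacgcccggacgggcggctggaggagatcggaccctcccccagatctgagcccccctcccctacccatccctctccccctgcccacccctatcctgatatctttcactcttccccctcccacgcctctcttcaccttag

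In the Nfkbia window the decamer lay 29 to 20 bases before the start (chromosome 12, 55492667 to 55492676). In the Rel window a pair of overlapping decamers covered bases 92 to 82 before the start. The Nfkbie window held 1 decamer 106 to 97 bases before the start and also the AP-1 match TGAGTCA, 156 to 150 bases before it. The Nfkb2 decamer shown lay 225 to 216 bases before the start of the model in the table, and the windows of its 2 other RefSeq starts held decamers too, 1 of them with the AP-1 match TGAATCA. The windows of Rela, Nfkbib and Bcl3 held no match. Of all 32851 promoter windows of this length, 7.25% held a κB decamer and 6.75% TGANTCA. Matches of the one did not overlap those of the other in the windows shown. A narrower form of the decamer was searched as well, and each of its matches in these windows lay on a decamer match. A match is a description of the sequence and shows no binding.

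At rest the control iBMDMs and the TGEMs expressed all 10 genes. In Scramble the mean levels ran from 37.2 RPKM for Nfkbia, 28.0 for Nfkb1 and 20.8 for Rela down to 4.76 for Nfkbiz and 3.78 for Relb. In vehicle-treated TGEMs Rela (37.8 RPKM) and Nfkbib (37.3) came first, and Nfkbie (3.96) and Nfkbiz (3.67) last. After KLA Nfkbia (1189 RPKM) and Nfkbiz (351 to 452) stood above the other 8 members, which had means of 25.7 to 76.7.

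**Figure D1:**
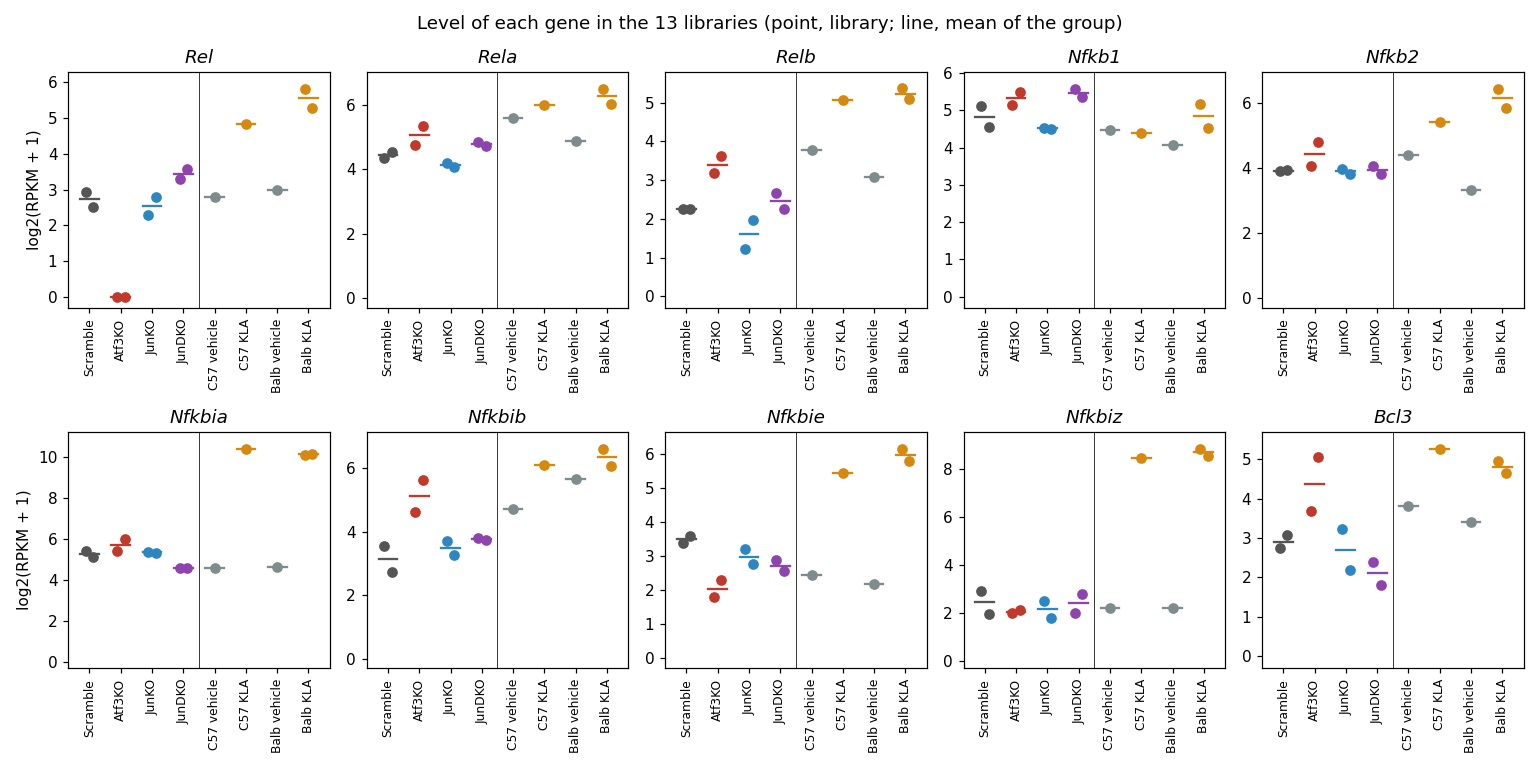
Level of each member as log2(RPKM + 1) (vertical axis) in every library, grouped by label along the horizontal axis. Points are libraries and lines are group means, and the vertical rule separates iBMDMs from TGEMs. Nfkbia and Nfkbiz show the widest step between TGEMs with vehicle and with KLA, and Rel lies at 0 in both Atf3KO libraries.

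The first comparison asked how each member answered 1 h of TLR4 activation in TGEMs. The fit was limma-trend on log2(RPKM + 1) with strain as a covariate, and passing means an adjusted p under 0.05 over all 10357 tested models. Of the 10 members 6 passed, all higher after KLA, where 1.53% of tested models passed and 1.29% passed as higher. These were Nfkbiz, Nfkbia, Nfkbie, Rel, Relb and Bcl3, which include 2 of the 3 classical inhibitors, both atypical members and 2 of the 5 subunits. With the further demand of a 2-fold change and 16 RPKM the same 6 passed, as did 1.13% of models. The median log2 difference was 1.92 over the members and -0.15 over all tested models.

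Nfkbia encodes IκBα, the inhibitor that is degraded and made anew within an hour of a stimulus. It measured 22.8 RPKM in C57Bl/6EiJ and 23.6 in Balb/cJ vehicle libraries, and 1330 in the C57Bl/6EiJ and 1095 and 1144 in the Balb/cJ KLA libraries. All KLA libraries lay far above both vehicle libraries, and the log2 difference was 5.64 ± 0.26 (SE, limma-trend adjusted p = 1.96e-04). A model of the microRNA Mir1198 overlaps Nfkbia on the other strand, and strand use in the counting is not given in the sources used here.

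Nfkbie, which encodes IκBε, measured 4.40 RPKM (C57Bl/6EiJ) and 3.52 (Balb/cJ) with vehicle, and 42.4 (C57Bl/6EiJ), 69.8 and 54.8 (Balb/cJ) with KLA. The groups did not overlap, and the log2 difference was 3.46 ± 0.29 (limma-trend adjusted p = 0.00171). Nfkbib, which encodes IκBβ, was already at 25.0 (C57Bl/6EiJ) and 49.6 RPKM (Balb/cJ) with vehicle and at 66.9, 96.6 and 66.5 with KLA. Its groups did not overlap either, but its difference of 0.98 ± 0.31 (95% interval 0.26 to 1.70) did not pass (limma-trend adjusted p = 0.224).

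Nfkbiz encodes IκBζ, a nuclear cofactor for a set of secondary response genes. It measured 3.67 RPKM in both vehicle libraries, and 351 (C57Bl/6EiJ), 452 and 374 (Balb/cJ) with KLA. It had the largest log2 difference of the members, 6.37 ± 0.26 (limma-trend adjusted p = 1.44e-04). Bcl3, whose product pairs with subunit homodimers in the nucleus, measured 13.03 (C57Bl/6EiJ) and 9.60 RPKM (Balb/cJ) with vehicle and 37.4, 29.9 and 24.1 with KLA. Its groups were apart, with a difference of 1.42 ± 0.25 (limma-trend adjusted p = 0.0428).

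Among the subunits, Rel encodes c-Rel, which carries a transactivation domain. It measured 5.90 (C57Bl/6EiJ) and 6.97 RPKM (Balb/cJ) with vehicle, and 27.4 (C57Bl/6EiJ), 55.5 and 38.1 (Balb/cJ) with KLA. Its lowest KLA library lay above both vehicle libraries, and the log2 difference was 2.34 ± 0.29 (limma-trend adjusted p = 0.00885). Relb, the subunit of the alternative pathway, measured 12.8 and 7.44 RPKM with vehicle and 32.8, 40.3 and 33.4 with KLA in the same order. The groups did not overlap, and the difference was 1.79 ± 0.29 (limma-trend adjusted p = 0.0327).

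Nfkb2 encodes the precursor that is processed to the partner of RelB. It measured 20.5 (C57Bl/6EiJ) and 8.98 RPKM (Balb/cJ) with vehicle, and 42.4 (C57Bl/6EiJ), 86.8 and 56.8 (Balb/cJ) with KLA. All KLA libraries were higher, but the difference of 2.06 ± 0.44 (95% interval 1.03 to 3.08) did not pass (limma-trend adjusted p = 0.0933). The call turned without the C57Bl/6EiJ KLA library (2.84), and with limma-voom on the recovered reads (2.01), which called 7 members. The Nfkb2 model overlaps that of Psd on the other strand.

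Rela encodes the main transactivating subunit of the classical pathway, and Nfkb1 the precursor of its usual partner. Rela measured 47.0 (C57Bl/6EiJ) and 28.5 RPKM (Balb/cJ) with vehicle, and 62.1, 89.2 and 63.5 with KLA, groups that were apart by a difference of 0.95 ± 0.33 that did not pass (limma-trend adjusted p = 0.26). Nfkb1 measured 21.4 and 15.8 RPKM with vehicle and 20.1, 35.2 and 21.96 with KLA. It was the one member whose groups overlapped (0.41 ± 0.33, 95% interval -0.36 to 1.18, limma-trend adjusted p = 0.58), and its sign turned to -0.09 without the Balb/cJ vehicle library. Libraries of the 9 other members did not overlap, as was so for 23.7% of tested models.

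**Figure D2:**
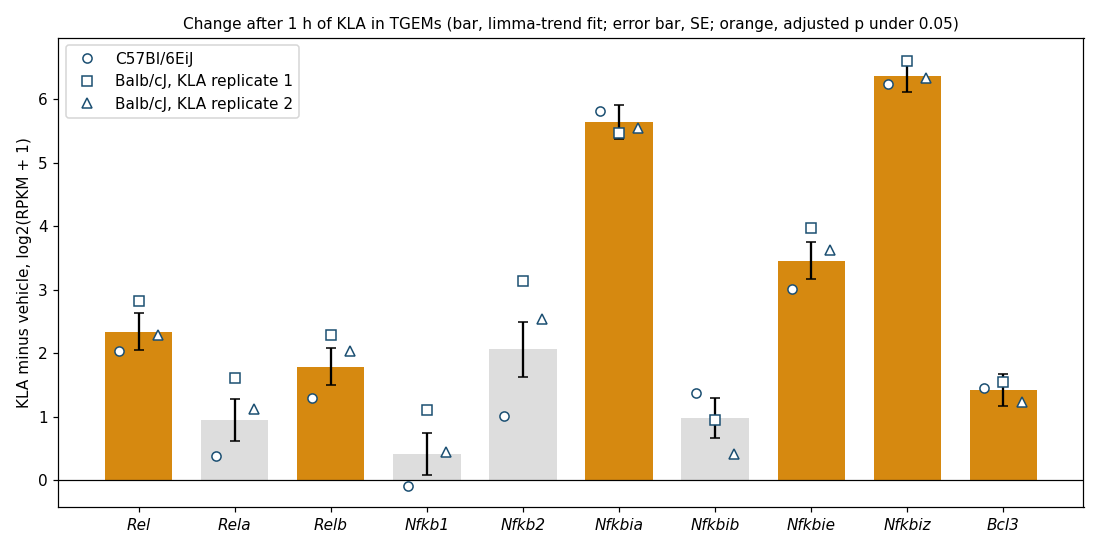
KLA minus vehicle on the log2(RPKM + 1) scale (vertical axis) for each member (horizontal axis). Bars are the limma-trend estimate with its SE, orange where the adjusted p was under 0.05, and open symbols are single KLA libraries against the vehicle library of their strain. The symbols lie close together for Nfkbia and Nfkbiz, from 5.47 to 5.81 and from 6.24 to 6.60, and apart for Nfkb2, from 1.02 to 3.14.

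The calls rested on different margins. Those of Nfkbia and Nfkbiz held in 13 of 13 alternative fits and under the call of 2-fold and 16 RPKM. Nfkbie lost its call without the Balb/cJ vehicle library (log2 difference 3.01). Rel lost it without any 1 library other than Balb/cJ KLA replicate 2 (2.04 to 2.56), and Relb (1.30 to 2.16) and Bcl3 (1.35 to 1.50) lost it without any 1 of the 5 libraries. The number of members passing was 3 without the C57Bl/6EiJ vehicle library, 2 without the Balb/cJ vehicle library, 3 without Balb/cJ KLA replicate 1, and 4 without either of the other KLA libraries. With no filter on low values, or with date in place of strain, Rel (2.34 and 2.43), Relb (1.79 in both) and Bcl3 (1.42 and 1.50) did not pass, and Bcl3 did not after GC correction (1.31) or with a pseudocount of 5 (1.17). In all Rel lost its call in 6, Relb in 7 and Bcl3 in 9 of 13 alternative fits.

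Titles carry a date, which the C57Bl/6EiJ vehicle and KLA libraries share, and which the Balb/cJ vehicle library shares with KLA replicate 1. Within the C57Bl/6EiJ date, KLA over vehicle was 58.4-fold for Nfkbia, 95.7-fold for Nfkbiz, 9.63-fold for Nfkbie and 4.64-fold for Rel. Within the Balb/cJ date it was 46.3-fold, 123-fold, 19.9-fold and 7.97-fold, and for the later Balb/cJ library 48.4-fold, 102-fold, 15.6-fold and 5.47-fold. Each passing member was higher in every one of these 3 pairs. The Balb/cJ vehicle library held 87 reads of Nfkbia, 31 of Nfkbiz, 20 of Nfkbie and 42 of Rel. B cell markers summed to 41.9 to 48.8 RPKM in the vehicle and 36.1 to 53.9 in the KLA libraries, and mesothelial and fibroblast markers to 25.4 to 33.9 and 16.3 to 31.3. In bulk RNA fewer cells of a type and less RNA per cell cannot be told apart.

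The sum of the 5 subunits was 67.6 and 108 RPKM in the vehicle libraries and 185, 214 and 307 with KLA. That of the 3 classical inhibitors went from 52.2 and 76.8 RPKM to 1261 to 1439, and Nfkbia alone made up 30.8% and 43.6% of it with vehicle and 86.8% to 92.4% with KLA. Classical inhibitor RNA per subunit RNA was therefore 0.485 and 1.14 with vehicle and 4.11 to 7.79 with KLA. The 8 iBMDM libraries held ratios of 0.407 to 1.02, the 2 lowest being those of JunDKO (0.407 and 0.428), near the 0.485 of the C57Bl/6EiJ vehicle library.

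**Figure D3:**
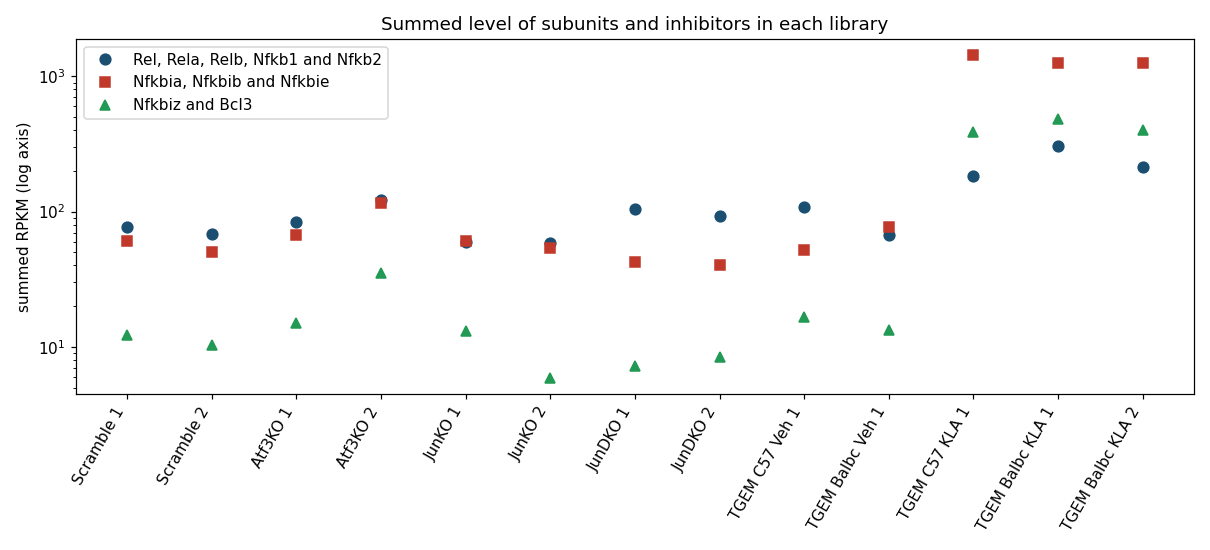
Summed RPKM on a log axis for the 5 subunits (circles), the 3 classical inhibitors (squares) and the 2 atypical members (triangles), for each of the 13 libraries along the horizontal axis. With KLA the classical inhibitors reach 1261 to 1439 RPKM, while without it they lie below the subunits in every library except JunKO 1 (60.6 against 59.5 RPKM) and the Balb/cJ vehicle library (76.8 against 67.6).

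Of the other genes of the pathway, in lists likewise drawn up with earlier results known, 1 of 30 further signalling components passed after KLA, higher, where 1.29% of all models passed as higher. It was Nfkbid, a further nuclear IκB gene (4.19 to 128 RPKM, 4.68 ± 0.29, limma-trend adjusted p = 5.80e-04). Of 14 feedback regulators 3 passed, all higher, with Tnfaip3, the ubiquitin editor A20, at 27.1 RPKM with vehicle and 491 with KLA (4.12 ± 0.29). Of 25 typical target genes 22 were tested and 19 rose. Of the 22, 5 averaged under 1 RPKM with vehicle and so met the level filter only through the KLA libraries, and 2 of these are among the 19. Tnf, a cytokine, was at 19.4 RPKM with vehicle and 3654 with KLA (7.42 ± 0.29), and Il1b, another, at 3.82 and 1347 (7.70 ± 0.52).

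Between the strains, with treatment as a covariate, 0 of 10 members passed with limma-trend, with limma-voom on the recovered reads too, where 2.31% of tested models passed, and 0 had an unadjusted p under 0.05, where 21.4% of models did. The widest 95% intervals were those of Nfkb2 (-0.07, interval -1.09 to 0.96) and Nfkb1 (0.08, interval -0.69 to 0.85). Those of Nfkb2, Rel (-0.16 to 1.18), Nfkbib (-0.16 to 1.28) and Bcl3 (-1.02 to 0.14) leave room for a difference of 1 on the log2 scale. The intervals of the other members do not reach it. Across models the strain differences fell with GC content (Spearman's rho -0.45, a description). No library date is shared by both strains, so strain and date cannot be told apart. Tests of whether the KLA response differed between strains gave 0 passing members and 0 passing models of all (0%), in a fit with 1 residual degree of freedom. The only unadjusted p under 0.05 among the members, where 8.06% of models had one, was that of Nfkb2 (response higher by 1.82 ± 0.62 in Balb/cJ, limma-trend adjusted p = 0.601).

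The next comparisons asked how the members stood after editing of each AP-1 gene in resting iBMDMs, in 1 fit of all 8 libraries over 10691 tested models. Each gene has 1 spread shared by the 4 groups, so the spread of the Atf3KO libraries enters the JunKO and JunDKO tests too. In the Atf3KO libraries 5 of 10 members passed against Scramble, where 41.2% of all tested models passed, so the share of members is near that of all models. Nfkbib, Bcl3 and Relb were higher, a direction in which 20.7% of models passed, and Rel and Nfkbie were lower, a direction in which 20.6% passed. In 9 of 10 members the libraries did not overlap, as in 70.8% of tested models. A 2-fold change and 16 RPKM besides were met by 2 members and 12.5% of models.

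Rel was listed at 0 in both Atf3KO libraries. It measured 6.65 and 4.77 RPKM in Scramble (33 and 21 reads), 3.88 and 5.90 with the JunKO label, 8.76 and 11.0 with JunDKO, and 0 and 0 with Atf3KO. Both Atf3KO libraries lay below each of the other 11 libraries. No fold is given against these zeros, since other genes in wide use, such as that of the ubiquitin-conjugating enzyme Ube2n (4.85 RPKM in Scramble), were listed at 0 in both libraries too, as were 3 of 1060 models at 32 to 64 RPKM in Scramble. The log2 difference of -2.73 depends on the pseudocount. Its limma-trend adjusted p was 5.46e-04, and the call held in 17 of 17 alternative fits, but Rel lies below the 16 RPKM of the stricter call.

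How often models of like level were listed at 0 was counted after the Rel values were seen. Of 2256 protein-coding models within 1.5-fold of the level of Rel in Scramble (3.81 to 8.56 RPKM) and above 0 in both Scramble libraries, 92 (4.08%) were listed at 0 in both Atf3KO libraries. The same held for 1 (0.0443%) in JunKO and 7 (0.31%) in JunDKO. Among the 540 of these models with a GC content under 45%, where Rel belongs with 42.5%, 41 (7.59%) were listed at 0 in Atf3KO and 0 in JunKO. The Atf3KO differences rose with GC content across models (Spearman's rho 0.50, a description, since models are not independent), and after a GC correction Rel was at -2.15 on the log2 scale in place of -2.73. The part of base composition in the Rel result was not tested further.

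**Figure D4:**
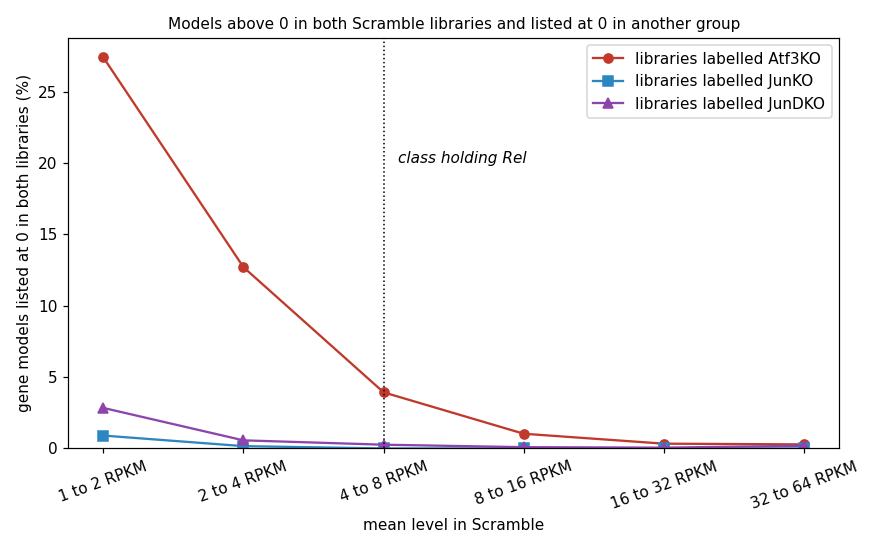
Share of protein-coding models, above 0 in both Scramble libraries, that were listed at 0 in both libraries of another group (vertical axis, percent), by mean Scramble level (horizontal axis). Lines join the 3 knockout labels, and the dotted line marks the class that holds Rel. In the class of 4 to 8 RPKM 3.93% of models were listed at 0 in Atf3KO and 0.262% in JunDKO.

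Nfkbie measured 9.39 and 11.1 RPKM in Scramble and 2.43 and 3.87 in Atf3KO, beside 8.21 and 5.77 for JunKO and 6.36 and 4.84 for JunDKO. The Atf3KO libraries were the lowest of the iBMDMs (-1.45 ± 0.27, limma-trend adjusted p = 0.00521). Nfkbib moved the other way, from 10.7 and 5.59 RPKM in Scramble (28 and 13 reads) to 23.8 and 48.8 in Atf3KO, beside 12.1 and 8.59 for JunKO and 12.8 and 12.4 for JunDKO. Both Atf3KO libraries lay above all other iBMDM libraries (2.00 ± 0.38, limma-trend adjusted p = 0.00548). GC correction left Nfkbie at -1.92 and Nfkbib at 1.22, and neither gene lost its call in any of 17 alternative fits. Nfkbib also met the call of 2-fold and 16 RPKM, and Nfkbie, below that level, did not.

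Bcl3 measured 5.68 and 7.37 RPKM in Scramble, 12.0 and 32.1 with Atf3KO, 8.36 and 3.52 with JunKO, and 4.24 and 2.53 with JunDKO. The Atf3KO libraries were the highest of the iBMDMs but far apart from each other, and the call (1.47 ± 0.49, limma-trend adjusted p = 0.0432) was lost in 11 of 17 alternative fits. Relb measured 3.80 and 3.75 RPKM in Scramble, 8.03 and 11.3 with Atf3KO, 1.35 and 2.94 with JunKO, and 5.31 and 3.80 with JunDKO. Both Atf3KO libraries lay above the other iBMDM libraries, and the call (1.14 ± 0.32, limma-trend adjusted p = 0.0215) was lost in 4 of 17 and under the call of 2-fold and 16 RPKM.

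Rela, Nfkb1, Nfkb2 and Nfkbia were also higher in both Atf3KO libraries than in both of Scramble but did not pass. Rela measured 19.2 and 22.3 RPKM in Scramble and 26.0 and 39.4 in Atf3KO (0.60 ± 0.23). Nfkb2 measured 14.1 and 14.5 against 15.9 and 27.3 (0.52 ± 0.26), and GC correction turned the sign of both (-0.15 and -0.24). Nfkb1 measured 33.4 and 22.6 RPKM against 34.5 and 44.1 (0.49 ± 0.23), and Nfkbia 40.9 and 33.5 against 41.5 and 63.8 (0.47 ± 0.23). Nfkbiz overlapped, at 6.60 and 2.91 RPKM in Scramble and 2.96 and 3.29 in Atf3KO (-0.40 ± 0.42).

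Of the Atf3KO libraries, replicate 2 carries a later date than all other iBMDM libraries. Without it 3 members passed (Rel, Nfkbib and Nfkbie), and Bcl3 (0.79) and Relb (0.92) did not. Without replicate 1 8 passed, Rela (0.90), Nfkb2 (0.89) and Nfkbia (0.77) being added, and without either Scramble library 3 passed. Bcl3 also lost its call without either Scramble library (1.31 and 1.63) or either JunDKO library (1.47), and Relb without either Scramble library (1.15 and 1.14). After GC correction Relb was at 0.18 and Bcl3 at 0.38, neither passing.

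In the JunKO libraries 0 of 10 members passed with limma-trend, and 0 with limma-voom, where 0.281% of tested models passed, and 0 had an unadjusted p under 0.05, where 7.88% of models did. Rela (17.2 and 15.6 RPKM), Relb (1.35 and 2.94), Nfkb1 (22.2 and 21.5) and Nfkbie (8.21 and 5.77) lay below both Scramble libraries, 4 of 10 members where libraries of 37.2% of models did not overlap. The largest of these differences was that of Relb, -0.65 ± 0.32 (95% interval -1.38 to 0.07). Nfkbia was at 40.3 and 39.4 RPKM (0.10, interval -0.42 to 0.63), Nfkb2 at 14.9 and 13.1 (-0.03, interval -0.63 to 0.57), and Nfkbiz at 4.71 and 2.42 (-0.30, interval -1.26 to 0.65). These intervals leave room for changes of about 1.5-fold in Nfkbia and Nfkb2 and of more than 2-fold in Relb and Nfkbiz.

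In the JunDKO libraries 0 of 10 members passed with limma-trend and with limma-voom, where 11.7% of tested models passed, and 4 had an unadjusted p under 0.05, where 27.5% of models did. Nfkbia, at 23.4 and 22.7 RPKM, lay below all other iBMDM libraries (-0.66 ± 0.23, limma-trend adjusted p = 0.104). Its SD was 15.7 RPKM in Atf3KO, 5.25 in Scramble, 0.676 in JunKO and 0.46 in JunDKO. With only the Scramble and JunDKO libraries fitted its SE was 0.17 (limma-trend adjusted p = 0.0567). Nfkbie was at 6.36 and 4.84 RPKM (-0.77 ± 0.27), Nfkb1 at 47.1 and 40.0 (0.64 ± 0.23) and Rel at 8.76 and 11.0 (0.70 ± 0.28). Libraries of 8 members did not overlap with Scramble, as in 61.6% of models. All tested models had a median difference of 0.23 here, and relative to equal library medians Nfkbia (-0.94) and Nfkbie (-1.05) passed, as they did after quantile normalisation (-0.84 and -1.08) and GC correction (-0.85 and -1.02). Nfkbia alone also passed without either Atf3KO library (-0.66).

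**Figure D5:**
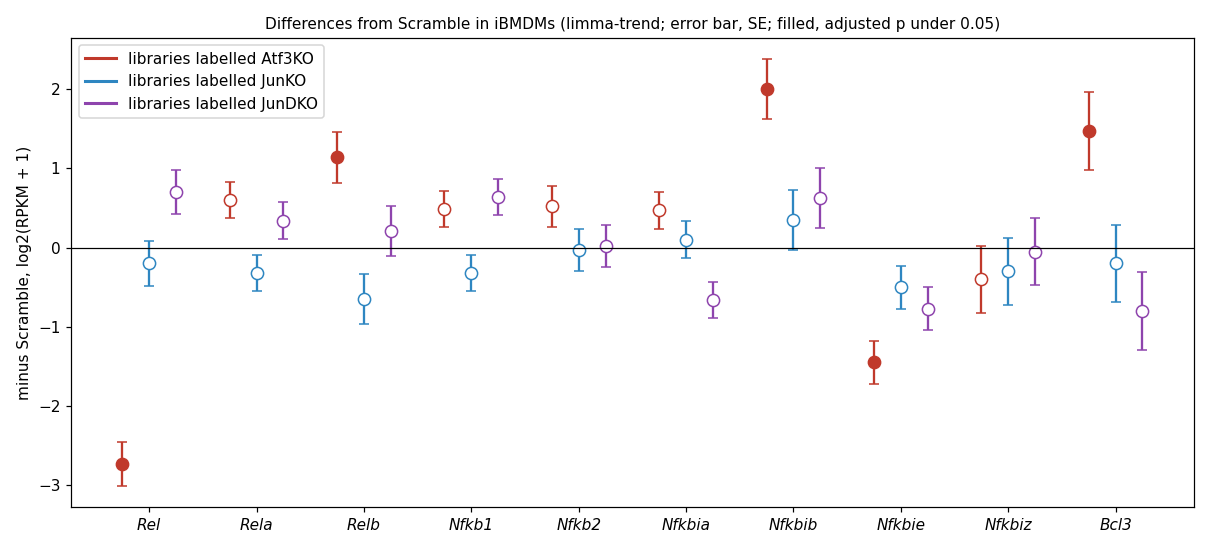
Difference from Scramble on the log2(RPKM + 1) scale (vertical axis) for each member (horizontal axis) in the libraries of the 3 knockout labels, with the SE of the limma-trend fit. Filled points had an adjusted p under 0.05, which 5 Atf3KO points reach, from -2.73 for Rel to 2.00 for Nfkbib, and 0 points of JunKO or JunDKO.

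Direct comparisons between the knockout labels tested whether the members differed among them. Against JunKO, 1 member passed in JunDKO, where 8.14% of models passed and 4.33% passed as higher (0 members, and 3.5% of models, with a 2-fold change and 16 RPKM besides). This was Nfkb1 (0.96 ± 0.23, limma-trend adjusted p = 0.0424), whose JunDKO libraries at 47.1 and 40.0 RPKM were above the JunKO ones at 22.2 and 21.5. That call was lost in 8 of 16 alternative fits, among them those without any 1 of the 4 libraries compared (0.84 to 1.07), with no filter on low values (0.96), after quantile normalisation (0.82) and at equal medians (0.71). Nfkbia passed at equal medians (-1.01), after quantile normalisation (-0.93) and after GC correction (-0.93). Nfkbia (-0.77) and Rela (0.66) passed in addition without either Atf3KO library.

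Against Atf3KO, 5 members passed in JunDKO (40.7% of models), and 3 (12.2%) with a 2-fold change and 16 RPKM besides. Rel was higher there, as were 25.9% of models, and 14.9% of models were lower. The lower members were Bcl3 (-2.27 ± 0.49), Nfkbib (-1.37 ± 0.38), Nfkbia (-1.13 ± 0.23, limma-trend adjusted p = 0.00617) and Relb (-0.94 ± 0.32). Without Atf3KO replicate 2, 2 members passed, without JunDKO replicate 1, 3 passed, and without JunDKO replicate 2, 1 passed. Relb lost its call in 10 of 16 alternative fits, among them those without any 1 library of Scramble, Atf3KO or JunDKO (-1.16 to -0.71), Bcl3 without Atf3KO replicate 2 (-1.59) or JunDKO replicate 2 (-1.99), Nfkbia without JunDKO replicate 2 (-1.11), and Nfkbib without Atf3KO replicate 2 (-0.86) or either JunDKO library (-1.39 and -1.35). Nfkb2 was added without Atf3KO replicate 1 (-0.87). After GC correction Relb (-0.29) did not pass and Nfkbie (0.90) did.

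Between Atf3KO and JunKO, 7 members passed (35.5% of models), and 2 (9.71%) with a 2-fold change and 16 RPKM besides. Relb (1.80 ± 0.32), Bcl3 (1.67 ± 0.49), Nfkbib (1.65 ± 0.38), Rela (0.93 ± 0.23) and Nfkb1 (0.81 ± 0.23) were higher in Atf3KO (17% of models), and Rel and Nfkbie (-0.95 ± 0.27) lower (18.5%). That count was 3 without Atf3KO replicate 2, 4 without JunKO replicate 1, 2 without JunKO replicate 2 and 4 without either JunDKO library. Rela lost its call without Atf3KO replicate 2 (0.64) or either JunKO library (0.99 and 0.86), Nfkbib without Atf3KO replicate 2 (1.14) or JunKO replicate 2 (1.42), and Nfkb1 without Atf3KO replicate 2 or any JunKO or JunDKO library (0.63 to 0.83). Bcl3 lost it without Atf3KO replicate 2, JunKO replicate 2 or any Scramble or JunDKO library (1.00 to 1.67), and Nfkbie without Scramble replicate 2, Atf3KO replicate 1 or any JunKO or JunDKO library (-1.17 to -0.70). Nfkb2 (0.92) and Nfkbia (0.67) were added without Atf3KO replicate 1. After GC correction Rela (0.27), Relb (0.95) and Bcl3 (0.70) did not pass. These comparisons share libraries with those against Scramble.

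In the rest of the pathway 30 signalling components were tested in each knockout. In Atf3KO 5 were higher and 5 lower, where 20.7% of all models passed as higher and 20.6% as lower (median -0.17, all models 0.05). Nfkbid was higher (4.09 RPKM in Scramble, 17.1 in Atf3KO, 1.84 ± 0.24), and Ikbkg, the regulatory subunit of the IκB kinase, was lower (32.1 to 8.30 RPKM, -1.83 ± 0.20). Ube2n was listed at 0 in Atf3KO, like Rel. In JunDKO, where 11.7% of all models passed, 2 components were higher and 1 lower, again Ikbkg (10.5 RPKM, -1.53 ± 0.20), and in JunKO 0 passed.

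Of 14 feedback regulators 1 was higher and 5 lower in Atf3KO, and 0 higher and 2 lower in JunDKO, shares near the 41.2% and 11.7% of all models that passed there. Tnfaip3 was lower in both, from 20.0 RPKM in Scramble to 8.61 in Atf3KO (-1.12 ± 0.19) and 5.50 in JunDKO (-1.69 ± 0.19). Of 18 tested target genes 1 was higher and 7 lower in each of Atf3KO and JunDKO, and 0 passed in JunKO. Of the 7 lower genes 3 in Atf3KO and 2 in JunDKO averaged under 1 RPKM there, and met the level filter through other libraries. Tnf was at 28.6 RPKM in Scramble and 6.14 in Atf3KO (-2.03 ± 0.22), and in JunDKO Sod2, a mitochondrial dismutase, was at 20.7 RPKM against 71.5 (-1.74 ± 0.19). Cd83, a surface marker of activation, was the target gene higher in JunDKO (26.6 RPKM against 0.93, 3.88 ± 0.38), and it too was under the filter's level in Scramble.

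The last comparison set resting TGEMs beside resting Scramble iBMDMs, which differ in cell origin, culture and the date and initials in the titles, and in strain for the Balb/cJ library, so that these cannot be told apart. In a fit of all 13 libraries 5 of 10 members passed, where 48.5% of 10929 tested models passed (15.8% as higher and 32.7% as lower), and 1 with a 2-fold change and 16 RPKM besides (19.9% of models). Nfkbib was higher in TGEMs (25.0 and 49.6 RPKM against 10.7 and 5.59, 2.05 ± 0.38, limma-trend adjusted p = 0.0013), as were Relb (12.8 and 7.44 against 3.80 and 3.75, 1.18 ± 0.31) and Rela (47.0 and 28.5 against 19.2 and 22.3, 0.79 ± 0.29). Nfkbie (4.40 and 3.52 against 9.39 and 11.1, -1.18 ± 0.29) and Nfkbia (22.8 and 23.6 against 40.9 and 33.5, -0.65 ± 0.23) were lower. The TGEM and Scramble libraries of each of these 5 did not overlap, and neither did those of Nfkb1 and Bcl3, which did not pass, 7 members where 67.2% of models did not overlap.

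All tested models had a median of -0.32 in this comparison, and at equal library medians Nfkbia was at -0.35 and did not pass. Relb (0.74) and Rela (0.31) did not pass without the C57Bl/6EiJ vehicle library, nor Nfkbie (-0.78) without the Balb/cJ one. Rela also lost its call without any 1 Scramble, JunKO or JunDKO library or Balb/cJ KLA replicate 2 (0.69 to 0.90), and Nfkbia without any 1 Scramble, JunDKO or vehicle TGEM library or JunKO replicate 2 (-0.80 to -0.50). The number passing was 2 without the C57Bl/6EiJ vehicle library and 3 without the Balb/cJ vehicle library, either Scramble library, JunKO replicate 2 or either JunDKO library. The sums of B cell markers (at most 0.943 RPKM in iBMDMs and 41.9 to 48.8 in vehicle TGEMs) and of mesothelial and fibroblast markers (at most 0.106 and 25.4 to 33.9) moved with this comparison, and their part was not tested. Differences here also rose with GC content (Spearman's rho 0.33 across models). The members higher in TGEMs, Rela, Relb and Nfkbib, have a GC content of 59.0%, 61.3% and 59.3%, against a median of 49.2% over all models. Neither GC correction nor limma-voom was fitted for this comparison, and the part of base composition was not tested.

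Across the 13 libraries the members fell into different patterns, given as Pearson's r of log2(RPKM + 1), a description over libraries that share treatment and cell type. Nfkbia and Nfkbie were the most alike of the 3 classical inhibitors (0.92), Nfkbia was closer still to the atypical member Nfkbiz (0.97), and Rela and Relb among subunits (0.97). Nfkb1 had r between -0.25 and 0.10 with each of the other 9. Among the 3965 models averaging 16 RPKM or more, those most like Nfkbia were Tnfsf9 (0.985), Irf1 (0.968) and Socs3 (0.962), and those most like Nfkbiz were Irf1 (0.984), Tnf (0.981) and Il1b (0.976). Nfkbie was most like Pde4b (0.973), Sowahc (0.972) and Tnf (0.969), and Nfkb2 most like Junb (0.971), H3f3b (0.961) and Bcl2l11 (0.959).

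For Rela the nearest were Ier5 (0.955), Bcl2l11 (0.95) and Tmbim1 (0.947), and the same 3 genes led for Relb (0.94 to 0.948). Rel was nearest to Plek (0.944), Rbm7 (0.935) and Rcan1 (0.934), and Bcl3 to Cebpb (0.935), Lrp10 (0.924) and H2-L (0.92). Nfkbib was nearest to Furin (0.949), Igsf8 (0.945) and Vps37c (0.935), and Nfkb1 to Nup62 (0.905), Mrpl37 (0.893) and Limd2 (0.877).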

How the data were processed

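The authors deposited RPKM for 24453 gene models in 13 polyA libraries. Per the labels and the table header, reads were aligned with STAR (Balb/cJ reads to a genome of that strain shifted to mm10) and RPKM was computed by the authors with HOMER over exons, genes condensed. Versions are not given in the sources used here. Coordinates are mm10 (GRCm38) and 1-based.

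Depth and whole reads were recovered from RPKM steps of 1 read (99.9% to 100% of values up to 50 reads lay within 0.05 of a whole number or of rounding). log2(RPKM + 1) of models averaging 1 RPKM or more was fitted with limma-trend (limma 3.58.1, R 4.3.3), two-sided, with Benjamini-Hochberg adjustment over all tested models and passing at an adjusted p under 0.05. Fold changes on this scale understate changes of low genes. The fits had 4 (iBMDM), 2 (TGEM), 1 (interaction) and 6 (all 13 libraries) residual degrees of freedom. With 1 library left out, a lone library is assumed to vary like other groups.

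Members were named in full. Of the pathway lists up to 5 passing genes per direction could be named, and per member the 3 models closest by Pearson correlation. The members and lists were chosen with earlier results of these data known. GC correction removed a natural spline with 5 degrees of freedom per library. Fits and depth recovery were tested on simulated data. Python 3.11.15 with matplotlib 3.10.9, pandas 2.3.3 and numpy 2.4.6 was also used.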

Additional observations from a re-analysis of the deposited data

Results flagged for a closer look

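The KLA libraries of Nfkb1 lay on opposite sides of their vehicle library in the TGEMs of the strains, which brought it up here, although Nfkb1 did not pass for KLA over both strains (0.41 ± 0.33) and its value in C57Bl/6EiJ (-0.09 on the log2 scale) is small beside that SE. Its RPKM after KLA was 0.939 times that of vehicle in the C57Bl/6EiJ pair, and 2.23 and 1.39 times in the Balb/cJ libraries against their vehicle library. The difference between the strains on the log2 scale was 0.87 ± 0.63 (limma-trend with an interaction term, 95% interval -0.78 to 2.52, unadjusted p = 0.23, adjusted p = 0.783), so it was not larger than the spread allows, and 1 library stands for each strain and treatment except Balb/cJ with KLA.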

How the results depend on the processing

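Numbers of members passing moved as follows, and causes were not tested. Under the stricter call of 2-fold and 16 RPKM they were 2 in Atf3KO against Scramble, 0 in JunDKO against JunKO, 3 in JunDKO against Atf3KO, 2 in Atf3KO against JunKO and 1 in TGEM vehicle against Scramble. With no filter on low values they were 0 (JunDKO against JunKO), 3 (JunDKO against Atf3KO) and 3 (KLA). JunDKO against Scramble gave 2 at equal library medians, 2 after quantile normalisation and 2 after GC correction. GC correction gave 3 in Atf3KO against Scramble, 2 in JunDKO against JunKO and 4 in Atf3KO against JunKO, and turned Rela (-0.15) and Nfkb2 (-0.24) in Atf3KO against Scramble and Nfkb2 (-0.11) in Atf3KO against JunKO. With date in place of strain 3 members passed with KLA.

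Leaving out 1 library at a time gave 3 to 8 members in Atf3KO against Scramble, 0 to 1 in JunDKO against Scramble, 0 to 3 in JunDKO against JunKO, 1 to 5 in JunDKO against Atf3KO, 2 to 8 in Atf3KO against JunKO, 2 to 4 with KLA and 2 to 5 in TGEM vehicle against Scramble. JunKO against Scramble and the strain comparison stayed at 0.

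Deviations of same-numbered iBMDM libraries from their group means correlated at 0.18 to 0.22 among Scramble, JunKO and JunDKO and at -0.21 to -0.12 between these and Atf3KO. With 2 numbers, and no label that makes a number a shared culture or day, they were not taken as pairs. With the replicate number as a block, 4 members passed in Atf3KO against Scramble, 0 in JunDKO against JunKO, 4 in JunDKO against Atf3KO and 6 in Atf3KO against JunKO, and JunKO and JunDKO against Scramble stayed at 0. The members lost were Bcl3, Nfkb1 (limma-trend adjusted p = 0.0682), Relb and Bcl3, in that order.

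Of 100 pairs of a member and a comparison 29 passed, of which 8 passed in every alternative fit made, 21 were lost in some and 0 changed sign. Among these 8 is Nfkbib in TGEM vehicle against Scramble, a comparison fitted with neither GC correction nor limma-voom. Of those 8, 4 also met the call of 2-fold and 16 RPKM, and Rel in 3 comparisons with Atf3KO and Nfkbie in Atf3KO against Scramble did not. The 48 pairs that had an unadjusted p under 0.05, or passed in some alternative, were followed, and of the other 52, 28 changed sign in some alternative. With 2 libraries or fewer per group, and 5 to 46 reads behind Rel, Relb, Nfkbib, Nfkbie, Nfkbiz and Bcl3 in the Scramble and JunKO libraries, modest changes of these genes could not be detected at this depth.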

Other observations

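Models around Rel on chromosome 11 were looked at after its values were seen. On the side of lower coordinates the nearest tested models, in order of distance, were Pus10 (9.94 RPKM in Scramble and 5.21 in Atf3KO), Pex13 (5.63 and 7.26) and 0610010F05Rik (6.37 and 2.45). On the other side these were Papolg (4.96 and 2.75), Fancl (9.2 and 13.4) and Vrk2 (19.4 and 28.2). All of these were above 0 in Atf3KO, where Rel was listed at 0.

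Nfkb1 had the largest share of subunit RNA in each of the 8 iBMDM libraries (33.2% or more), and Rela had 29.0% to 43.7% of it in TGEMs. With KLA, Nfkb1 was 10.3% to 11.5% of subunit RNA, against 19.9% and 23.3% with vehicle.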
